A study of Mus musculus with 8 samples.

Results

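The genes described here encode the protein kinase D (PKD) family and 6 protein kinases C (PKC) of the mouse: Prkd1, Prkd2 and Prkd3, the calcium-dependent PKC genes Prkca and Prkcb, and the calcium-independent PKC genes Prkcd, Prkce, Prkch and Prkcq. They were chosen by gene symbol and make up 9 of the 15653 genes named on the arrays, which carried 22523 probe sets besides controls. All 9 had a probe set, and each gave a single profile of values. The family was put forward because the pattern of Prkd1 over the cell lines was already known, so the values of Prkd1 are given as a description with no test.

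Protein kinases C and D are serine and threonine kinases that read the lipid diacylglycerol in membranes. Phospholipase C makes diacylglycerol when receptors are stimulated, PKC enzymes bind it and become active, and PKC enzymes of the calcium-independent kind phosphorylate PKD, which carries the signal on to the Golgi, the actin skeleton and the nucleus. In fibroblasts these kinases are known for their parts in growth factor signalling, adhesion and secretion, and phorbol esters, which mimic diacylglycerol, have long been used to switch them on.

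The study used Affymetrix mouse arrays to compare gene expression in cloned lines of p53-null mouse fetal fibroblasts that divide in different patterns. ASYM stands for the line Ind-8 (n = 3 arrays), which carries a wild-type mouse p53 cDNA under a modified human metallothionein promoter, so that zinc turns p53 on and each division tends to give a cycling cell and an arrested one. SYM stands for the line Con-3 (n = 3), which stays p53-null and divides symmetrically. The labels call Con-3 the congenic parent of Ind-8, whereas the methods describe control lines made with the empty promoter vector. p53SYM stands for the line tI-3 (n = 2), a derivative of Ind-8 that induces p53 with zinc but also expresses the enzyme IMPDH II from a constitutive transgene and divides symmetrically. All 3 lines were held for 48 h in medium with 65 µM ZnCl2 and 5 µg/ml puromycin, so no group shows a line without zinc. The tI-3 medium also held G418, in µg per ml by the labels and in mg per ml by the methods. Each group is a single cloned line, so a difference between groups is also a difference between clones, and p-values measure the spread of these cultures only. In RNA from whole cultures, fewer cells that express a gene and less RNA per cell cannot be told apart.

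Values are RMA values on the log2 scale, where a difference of 1 is a doubling. A value below 4.30, the 25th percentile of the probe-set means, is called dim. The number of arrays limits the precision. The comparisons are A (ASYM minus SYM), B (ASYM minus p53SYM) and C (p53SYM minus SYM), and each pair of comparisons shares a group. A gene is called where its limma p-value, adjusted over all 22523 probe sets by the Benjamini-Hochberg method, lies under 0.05.

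Some arrays stood apart. The 18S ribosomal RNA controls averaged 10.63 on SYM replicate 3 and 5.58 to 6.46 on the other 7 arrays. The hybridization controls averaged between 8.98 and 9.16 on the 3 ASYM arrays and on SYM replicates 1 and 2, but 9.62 on the remaining SYM array, and p53SYM replicates 1 and 2 had 9.43 and 9.71. Comparison B therefore sets low arrays against high arrays with no overlap, while A can be read within the low arrays and C within the high arrays. The p53SYM arrays also had the narrowest spread of values, with an SD of 2.29 and 2.25 log2 units against 2.32 to 2.40 on the other 6. Among the 5631 dimmest probe sets the median B difference was -0.14, and 19.3% of them read higher in ASYM. After a second quantile normalization that median was -0.01.

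The genes that check the labels gave these values. Trp53 read 5.68, 5.87 and 5.80 in ASYM, 5.21, 5.29 and 5.27 in SYM, and 5.60 and 5.69 in p53SYM. It was higher by 0.53 in A (adjusted p = 0.00192) and by 0.39 in C (adjusted p = 0.0144). Cdkn1a, the p53 target that encodes the cell cycle inhibitor p21, had group means of 9.66 (ASYM), 5.86 (SYM) and 7.44 (p53SYM). The Impdh2 means were 12.19 for ASYM, 12.53 for SYM and 12.36 for p53SYM, and its lines did not overlap. It was called lower in A (-0.34, adjusted p = 0.0108). The p53SYM level lay between without a call, above ASYM by 0.17 (adjusted p = 0.163) and below SYM by 0.17 (adjusted p = 0.182). The paper states that p53SYM has more IMPDH II expression than SYM, which these array values did not show. Which of these probes lie in the introduced cDNAs was not examined. The metallothionein gene Mt1, which zinc induces, averaged 13.88, 13.73 and 13.62 in the 3 groups, and Mt2 averaged 13.33, 13.45 and 13.07, with a C difference of -0.39 (adjusted p = 0.0248). Of 10 fibroblast markers, Thy1 was dim in ASYM and in SYM, and the others were above the dim limit in all groups. Of 5 epithelial markers Krt19 was bright, at 10.35 in ASYM, 9.52 in SYM and 9.31 in p53SYM, while Cdh1 and Krt18 were dim throughout. The haematopoietic markers Ptprc and Itgam, the endothelial markers Pecam1 and Cdh5 and the neuronal marker Snap25 were dim in all 3 groups.

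Prkd1 encodes protein kinase D1, the founding member of its family, which acts at the Golgi and on nuclear histone deacetylases. Prkd1 read 7.91, 7.74 and 7.97 on the 3 ASYM arrays, 3.55, 3.40 and 3.67 on the 3 SYM arrays, and 7.01 and 7.05 on the 2 p53SYM arrays. It was dim in the line without p53 and well above the dim limit in both lines with it, highest in ASYM, and no array of one line overlapped another line. The difference was 4.34 in A, a 20.2-fold ratio of array values. It was 3.50 in C (11.3-fold) and 0.84 in B (1.79-fold). Since the SYM level is dim, the A and C ratios are ratios of array values and need not be ratios of RNA. Among the 18172 distinct profiles, Prkd1 ranked 2 from the top by its A difference, 6 by its C difference and 698 by its B difference. Within the arrays with low hybridization controls the A difference was 4.40, and within those with high ones the C difference was 3.37. These ranks and differences belong to the pattern for which the gene was put forward.

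**Figure D1:**
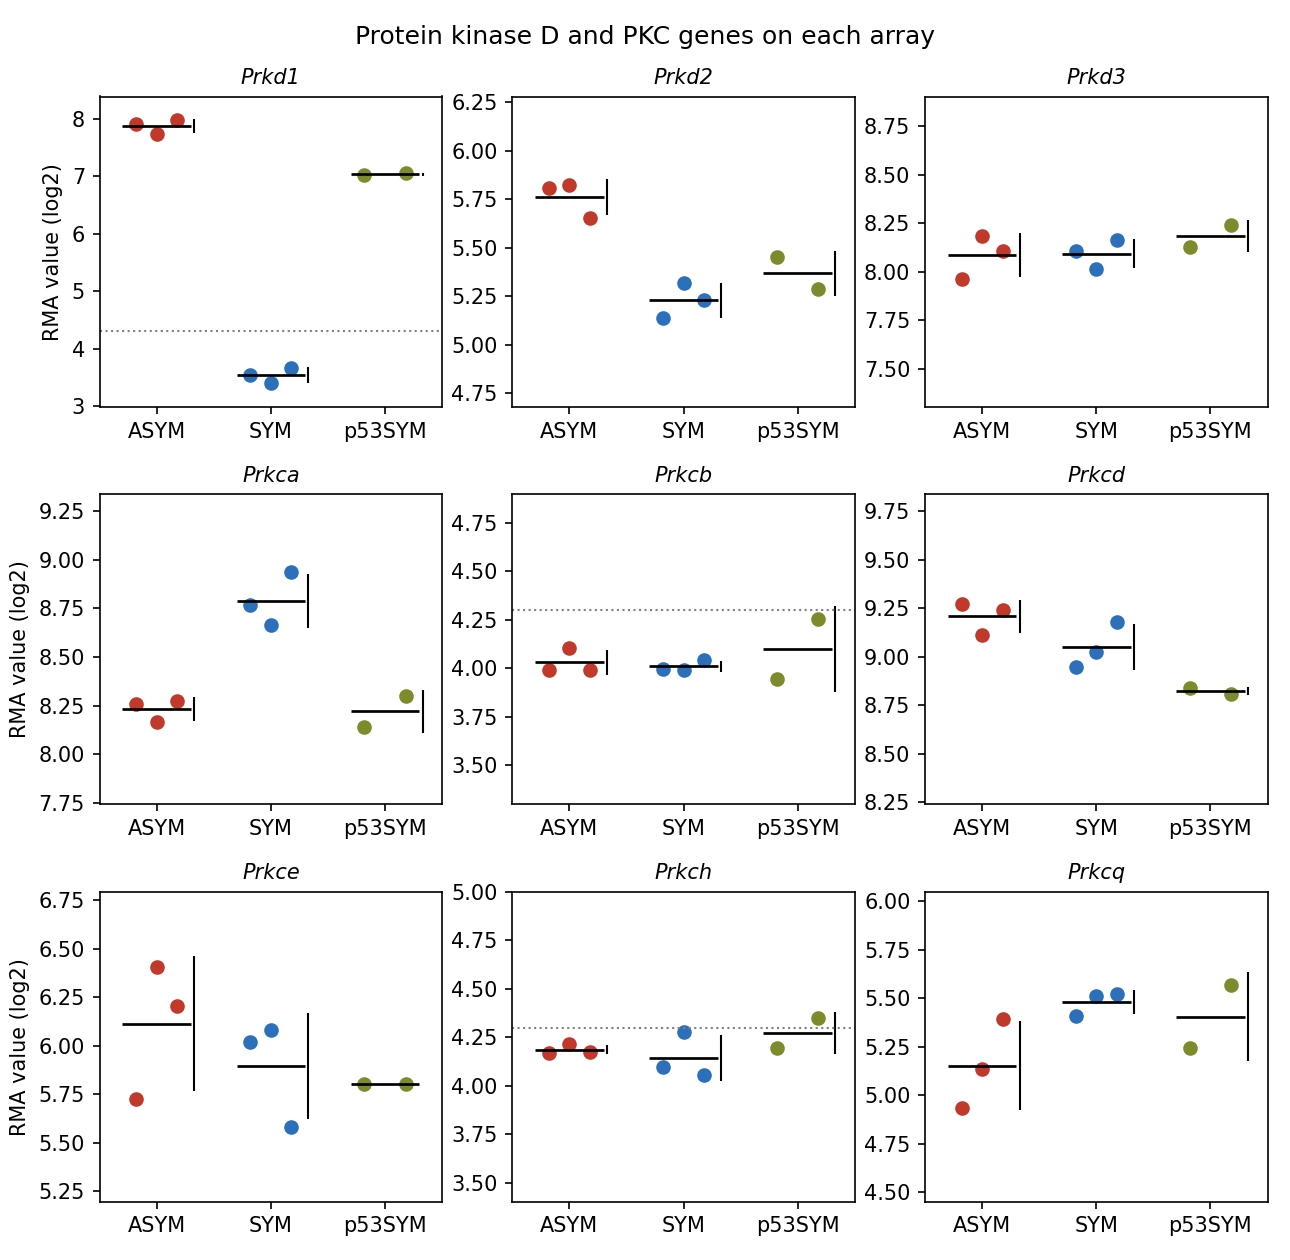
RMA values (log2, vertical axis) of the 9 genes on each array, by line; points are arrays, horizontal bars group means and vertical bars 1 SD (n = 3, 3 and 2), and the dotted line, where in range, is the dim limit of 4.30. The axis spans the same number of log2 units for each gene but Prkd1, whose axis spans more; Prkd1 is dim only in SYM, and Prkca is higher in SYM than in both other lines.

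Windows of 250 bases before a RefSeq transcript start are shown for Prkd1 and for Prkd2 and Prkca, the family members called in A. They come from RefSeq promoter windows on GRCm38.p6, written 5′ to 3′ on the strand of the gene, and capitals mark GGGCGG, the core of the GC box bound by Sp factors, on either strand.
Prkd1, chr12:50649250-50649499, minus strand: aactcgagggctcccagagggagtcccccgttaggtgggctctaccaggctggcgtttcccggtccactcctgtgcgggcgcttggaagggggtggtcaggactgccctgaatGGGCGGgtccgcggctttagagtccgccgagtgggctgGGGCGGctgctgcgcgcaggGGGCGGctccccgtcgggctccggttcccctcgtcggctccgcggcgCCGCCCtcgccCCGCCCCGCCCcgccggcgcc
Prkd2, chr7:16842652-16842901, plus strand: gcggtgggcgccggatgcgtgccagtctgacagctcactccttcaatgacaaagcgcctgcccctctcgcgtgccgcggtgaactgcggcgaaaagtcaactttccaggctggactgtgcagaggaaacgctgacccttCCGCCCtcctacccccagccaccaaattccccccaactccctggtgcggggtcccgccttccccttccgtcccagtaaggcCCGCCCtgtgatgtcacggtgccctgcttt
Prkca, chr11:108343889-108344138, minus strand: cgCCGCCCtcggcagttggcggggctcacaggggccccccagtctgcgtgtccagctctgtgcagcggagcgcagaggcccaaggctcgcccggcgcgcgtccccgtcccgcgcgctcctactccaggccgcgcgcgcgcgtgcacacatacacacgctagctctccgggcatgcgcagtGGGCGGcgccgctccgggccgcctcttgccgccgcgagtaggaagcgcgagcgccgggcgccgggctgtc
GGGCGG occurred 6 times in the window of Prkd1, 2 times in that of Prkd2 and 2 times in that of Prkca, and 32.7% of all 32851 windows of that length held it at least once. Windows were found for 7 of the 9 genes, with 2 each for Prkd2, Prkd3 and Prkcd. For those genes only the window nearest the 5′ end of the gene was searched. Each of the 7 windows searched held the letters. Some windows precede a start inside the annotated gene, so that 22 of the 250 bases for Prkd1, 21 for Prkcb, 206 for Prkcd and all 250 for Prkcq lie within the bounds of the gene. The pattern TGANTCA, with any base at N, takes in the phorbol ester response element but is wider, and 6.75% of windows held it. That pattern, the cyclic AMP element TGACGTCA (1.55%), CCAAT (33.8%) and the p53 half-site (7.13%) were in none of the 7. Both strands were searched with overlaps allowed. TATAAA, found in 12.4% of windows, was held by that of Prkcd. The Prkd1 window was 75.6% G and C with 30 CpG pairs, that of Prkca 76.8% with 39 and that of Prkd2 64.4% with 18, beside a median of 52.4% over all windows. A match of letters is a description of the window and says nothing about what binds there.

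Prkd2, which encodes the PKD isoform best known from lymphocytes and endothelium, was higher in ASYM than in both other lines. It read 5.81, 5.82 and 5.65 in ASYM, 5.14, 5.32 and 5.23 in SYM, and 5.45 and 5.28 in p53SYM. All 3 ASYM arrays lay above all 5 others, while SYM and p53SYM overlapped. The A difference was 0.53 (SE 0.09, 1.45-fold, adjusted p = 0.00314), and it was 0.53 within the arrays with low hybridization controls. The B difference was 0.39 (SE 0.11, 1.31-fold, adjusted p = 0.0194). The C difference of 0.14 was not called, with a 95% interval of -0.10 to 0.37. The call in B was lost with a block for high or low hybridization controls, where the difference was 0.40 (adjusted p = 0.286), and without ASYM replicate 1 (0.37, adjusted p = 0.0536), ASYM replicate 2 (0.36, adjusted p = 0.0559) or p53SYM replicate 2 (0.31, adjusted p = 0.151). Over the 16 alternatives that refit the gene, the B difference ran from 0.31 to 0.49 and its adjusted p from 0.00825 to 0.286.

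Prkd3, the third PKD gene, gave nearly the same level in the 3 lines. It read 7.97, 8.19 and 8.11 in ASYM, 8.11, 8.01 and 8.16 in SYM, and 8.13 and 8.24 in p53SYM, and the lines overlapped in every comparison. Its A difference was -0.01 with a 95% interval of -0.21 to 0.20, so a change of the size seen for Prkd2 in A lies outside the interval. The B difference was -0.10 (interval -0.33 to 0.13) and the C difference 0.09 (interval -0.14 to 0.32).

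Prkca encodes PKC alpha, the calcium-dependent PKC found in most tissues. It read 8.26, 8.16 and 8.27 in ASYM, 8.77, 8.66 and 8.94 in SYM, and 8.14 and 8.30 in p53SYM. Both lines with p53 were low and overlapped each other, and all 3 SYM arrays lay above all 5 others. Prkca was lower in ASYM than in SYM, with a difference of -0.56 (SE 0.10, 1.47-fold, adjusted p = 0.00298), and lower in p53SYM than in SYM, with a difference of -0.57 (SE 0.11, 1.49-fold, adjusted p = 0.00392). The B difference was 0.01 with an interval of -0.23 to 0.26, and its sign turned under 6 of the 16 alternatives. Without SYM replicate 3, which leaves the arrays with low hybridization controls, the A difference was -0.48. Within the arrays with high ones, where SYM has a single array, the C difference was -0.72. The calls in A and C held under the 16 alternatives that refit the gene, but both differences fall short of a minimum of 1. The adjusted p-values were 0.00195 to 0.0153 in A and 0.00275 to 0.0397 in C.

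Prkcb, the calcium-dependent isoform typical of B cells and brain, was dim in every group, with values of 3.94 to 4.25 over the 8 arrays and no call. Its group means were 4.03, 4.01 and 4.10 in ASYM, SYM and p53SYM.

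Prkcd encodes PKC delta, a calcium-independent isoform known for its part in apoptosis. It read 9.27, 9.11 and 9.24 in ASYM, 8.95, 9.03 and 9.18 in SYM, and 8.84 and 8.81 in p53SYM. The p53SYM arrays were lower than all others, and ASYM and SYM overlapped. Prkcd was higher in ASYM than in p53SYM by 0.38 (SE 0.10, 1.31-fold, adjusted p = 0.0198), while the A difference of 0.16 (interval -0.05 to 0.36) and the C difference of -0.23 (interval -0.46 to 0.00) were not called. The call in B was lost after a second quantile normalization (difference 0.24, adjusted p = 0.123). It was also lost with the hybridization controls as a block, where the difference rose to 0.58 (adjusted p = 0.0931), and without ASYM replicate 1 (0.35, adjusted p = 0.0566), p53SYM replicate 1 (0.40, adjusted p = 0.0660) or p53SYM replicate 2 (0.37, adjusted p = 0.107). The adjusted p ran from 0.0143 to 0.123.

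Prkcq encodes PKC theta, the isoform of T cell receptor signalling and skeletal muscle. It read 4.93, 5.13 and 5.39 in ASYM, 5.41, 5.51 and 5.52 in SYM, and 5.24 and 5.57 in p53SYM. The ASYM arrays lay below the SYM arrays by a narrow margin, and p53SYM overlapped both. Its A difference of -0.33 (SE 0.13) was not called at an adjusted p of 0.102. It was called with the replicate number as a block (adjusted p = 0.0423) and without ASYM replicate 3 (difference -0.45, adjusted p = 0.0339). Without ASYM replicate 1 the difference was -0.22 (adjusted p = 0.304), and the adjusted p ran from 0.0339 to 0.304.

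Prkce, for PKC epsilon, was the most variable of the 9 within ASYM and within SYM, but not within p53SYM. It read 5.73, 6.41 and 6.21 in ASYM, 6.02, 6.08 and 5.58 in SYM, and 5.80 in both p53SYM arrays. Its group SDs were 0.35 in ASYM and 0.27 in SYM, the lines overlapped, and the A difference of 0.22 had an interval of -0.17 to 0.61. Prkch, for PKC eta, an isoform of epithelia, was dim in all 3 groups, at 4.05 to 4.35 over the 8 arrays, and was not called.

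Over the 8 genes other than Prkd1, limma called 1 higher (Prkd2) and 1 lower (Prkca) in A, where 10.9% of all probe sets were called higher and 11.0% lower. In B it called 2 higher (Prkd2 and Prkcd) and 0 lower, beside 15.6% and 15.5% of all probe sets. In C it called 0 higher and 1 lower (Prkca), beside 10.2% and 15.1%. The median difference of the 8 genes was 0.03 in A, -0.03 in B and 0.01 in C, against -0.06, -0.06 and 0.04 over all probe sets. These counts lie near the shares over the whole array. The rank product test that the methods name, with a proportion of false positives under 0.05, called 0 of the 8 in each comparison, where it called 3.65% of all probe sets in A, 2.02% in B and 2.31% in C, in either direction. At an unadjusted rank product p under 0.05 there were 2 in A, 0 in B and 1 in C. The share of all probe sets at that threshold was not taken, so nothing about the family is read from these counts.

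**Figure D2:**
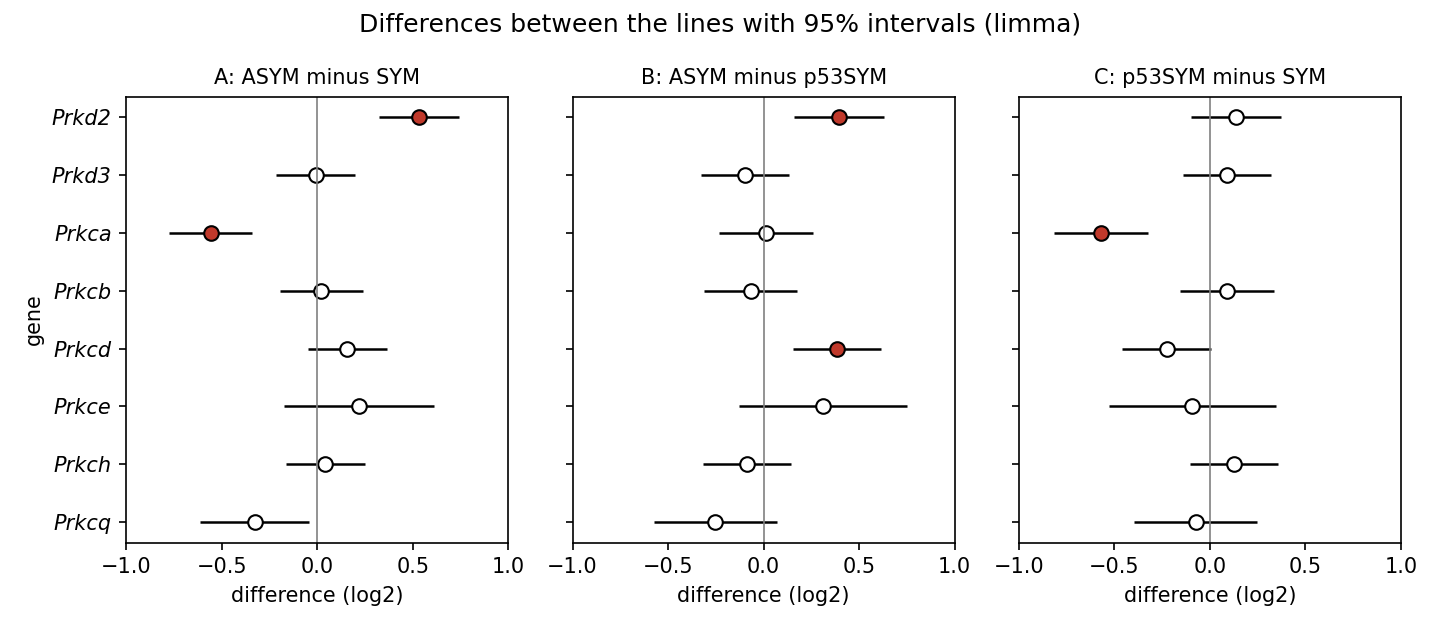
Differences between lines (log2, horizontal axis) of the 8 genes other than Prkd1 in comparisons A, B and C; points are limma estimates, lines are 95% intervals and filled points are called. Prkca lies at -0.56 in A and -0.57 in C, Prkd2 at 0.53 in A and 0.39 in B, and Prkcd at 0.38 in B.

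Genes that act around these kinases were taken from 7 lists, of which 73 genes were measured. Limma called 9 of the 73 higher and 8 lower in A (12.3% and 11.0%, beside 10.9% and 11.0% of all probe sets), 13 higher and 9 lower in B (17.8% and 12.3%, beside 15.6% and 15.5%), and 13 higher and 11 lower in C (17.8% and 15.1%, beside 10.2% and 15.1%). With a block for the hybridization controls the calls fell to 4 in B and 11 in C, without p53SYM replicate 2 to 10 and 11, and without p53SYM replicate 1 to 12 in C. Most of the shares in the main fit lie near those of the whole array, which are also the background for the counts of each list. With the block or an array left out, the share of all probe sets called was not taken. Whether the calls fell alike over the whole array was therefore not tested. Their median differences were -0.04 in A, -0.04 in B and 0.04 in C. Marcks and Prkd1 had been seen among the changed genes of this study before the lists were written, so the direction of Marcks is no independent evidence.

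Among the substrates of PKC, Marcks, a membrane and actin binding protein that PKC releases from the membrane, read 9.66, 10.16 and 9.96 in ASYM, 8.25, 8.19 and 8.09 in SYM, and 9.33 and 9.21 in p53SYM. As for Prkd1, SYM was lowest, p53SYM lay between and no lines overlapped. Marcks was higher by 1.75 in A (SE 0.12, 3.37-fold, adjusted p = 1.8e-05), by 1.10 in C (adjusted p = 0.00039) and by 0.65 in B (adjusted p = 0.00665). The A difference was 1.71 within the low arrays and the C difference 1.19 within the high arrays. Its relative Marcksl1 was higher by 0.79 in A (adjusted p = 0.00162) and by 0.57 in C (adjusted p = 0.013). Gap43, a growth cone protein phosphorylated by PKC, read 5.14, 5.01 and 4.93 in ASYM, 5.65, 5.78 and 5.74 in SYM, and 4.54 and 5.10 in p53SYM. It was lower in both lines with p53, with differences of -0.69 in A (adjusted p = 0.00505) and -0.90 in C (adjusted p = 0.00186). Of the adducins, which cap actin filaments, Add1 was higher by 0.35 in A and 0.51 in C, Add3 was lower in A (-0.42) and B (-0.46), and Add2 was higher in p53SYM than in both other lines (B -0.45, C 0.44). Of the 11 substrates measured, 3 were higher and 2 lower in A, 1 higher and 2 lower in B, and 4 higher and 1 lower in C.

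Substrates and partners of PKD numbered 15. Hspb1, the small heat shock protein that PKD phosphorylates, read 11.56, 11.15 and 11.24 in ASYM, 9.98, 9.56 and 9.83 in SYM, and 9.39 and 9.22 in p53SYM. It was well above the dim limit in all 3 lines and highest in ASYM, and no lines overlapped. The difference was 1.52 in A (SE 0.14, 2.88-fold, adjusted p = 7.7e-05) and 2.01 in B (SE 0.15, 4.03-fold, adjusted p = 2.86e-05), and p53SYM lay below SYM by a difference of -0.49 (adjusted p = 0.0414). Hdac5, a histone deacetylase that PKD moves out of the nucleus, was higher in both lines with p53, by 0.76 in A (adjusted p = 0.000695) and 0.48 in C (adjusted p = 0.0115). Cttn, the actin regulator cortactin, was highest in p53SYM, at 10.24 and 10.22 against 9.86 to 9.92 in ASYM and 9.64 to 9.67 in SYM, with a C difference of 0.58 (adjusted p = 0.00102) and a B difference of -0.34 (adjusted p = 0.0148). Kidins220, a scaffold protein that was found as a PKD substrate, was higher by 0.56 in C, the oxysterol binding protein gene Osbp was lower in C (-0.52), and Pi4kb, the Golgi lipid kinase that PKD activates, was higher by 0.38 in B. In all, 2 were higher and 0 lower in A, 2 higher and 1 lower in B, and 4 higher and 2 lower in C.

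Enzymes that make diacylglycerol numbered 12. Plcg2, the phospholipase C of immune receptors, read 6.92, 6.24 and 6.46 in ASYM, 5.42, 5.45 and 5.46 in SYM, and 5.93 and 5.46 in p53SYM. All ASYM arrays lay above the rest, and the difference was 1.10 in A (SE 0.17, 2.14-fold, adjusted p = 0.00136) and 0.85 in B (adjusted p = 0.00801). Plcd1 was also highest in ASYM, with SYM and p53SYM overlapping, and was higher by 0.52 in A (adjusted p = 0.00193) and 0.56 in B (adjusted p = 0.00243). Plcd3 was lowest in p53SYM, with differences of 0.85 in B and -0.52 in C, while Plcb1 was highest there, with differences of -0.44 in B and 0.58 in C. With 1 p53SYM array left out, the Plcb1 differences ran from -0.64 to -0.24 in B and from 0.38 to 0.78 in C. Plch2 was lower in B (-0.46), and Plch1, dim in all 3 groups, was higher in C (0.42). In A 2 of the 12 were higher and 0 lower, in B 4 were higher and 2 lower, and in C 2 were higher and 1 lower.

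Diacylglycerol kinases, which turn the lipid into phosphatidic acid, numbered 10. Dgka read 6.68, 6.95 and 6.89 in ASYM, 6.20, 6.12 and 6.43 in SYM, and 6.23 and 5.94 in p53SYM, so that ASYM stood above both other lines, by 0.59 in A (adjusted p = 0.00618) and 0.75 in B (adjusted p = 0.00313). Dgkh followed the pattern of Prkca. It read 5.81, 5.51 and 5.88 in ASYM, 6.53, 6.32 and 6.46 in SYM, and 5.52 and 5.94 in p53SYM, a difference of -0.70 in A (adjusted p = 0.00470) and of -0.70 in C (adjusted p = 0.00693). Dgkz was lower in both lines with p53 as well, by differences of -0.38 in A and -0.56 in C. In A 1 was higher and 2 lower, in B 1 higher and 0 lower, and in C 0 higher and 2 lower.

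Proteins that prime, anchor or dephosphorylate PKC numbered 10. Akap12, a scaffold that binds PKC and protein kinase A, read 9.63, 9.18 and 9.18 in ASYM, 9.80, 9.25 and 9.32 in SYM, and 6.78 and 6.43 in p53SYM. It was low in p53SYM alone, with a difference of 2.73 in B (SE 0.19, 6.62-fold, adjusted p = 1.82e-05) and -2.85 in C (SE 0.19, 7.23-fold, adjusted p = 1.11e-05), and of -2.71 within the high arrays. ASYM and SYM overlapped (A difference -0.13, adjusted p = 0.661). Prkcdbp, a caveolar protein that binds PKC delta, was also lowest in p53SYM (B 0.46, C -0.54). Phlpp2, a phosphatase that removes the priming phosphate of PKC, was lower in A (-0.43, adjusted p = 0.00777), as was the mTOR complex subunit gene Mlst8 (-0.41, adjusted p = 0.0299). Gnb2l1, for the PKC scaffold RACK1, was higher by 0.33 in B, a difference that turned to -0.03 after a second quantile normalization. In A 0 were higher and 2 lower, in B 3 higher and 0 lower, and in C 0 higher and 2 lower.

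The list of other diacylglycerol receptors and their relatives held 9 genes. Unc13b, a protein of vesicle priming, was higher in ASYM than in SYM by 0.75 (adjusted p = 0.00545). Rasgrp3, a Ras activator that diacylglycerol recruits, and Chn1, a Rac GTPase activating protein, were lowest in p53SYM: Rasgrp3 by 0.80 in B and -0.63 in C, and Chn1 by 0.56 in B and -0.49 in C. Unc13c was lower in A (-0.53) and C (-0.49). It was dim in both lines with p53 and lay just above the dim limit in SYM, at a mean of 4.35. Unc13d was lower in B (-0.32). In A 1 was higher and 1 lower, in B 2 higher and 1 lower, and in C 0 higher and 3 lower.

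Of the 6 other PKC relatives, the PKC-related kinase gene Pkn2 read 7.48, 7.33 and 7.62 in ASYM, 8.12, 7.95 and 7.94 in SYM, and 8.45 and 8.61 in p53SYM. The 3 lines did not overlap. Its differences were -0.53 in A (adjusted p = 0.00508), -1.06 in B (adjusted p = 0.000219) and 0.53 in C (adjusted p = 0.00786). The atypical PKC genes Prkci and Prkcz, whose products do not respond to diacylglycerol, were higher in p53SYM than in both other lines. Prkci differed by -0.58 in B and 0.46 in C, and Prkcz by -0.63 in B and 0.51 in C. Without p53SYM replicate 2 the Prkcz differences were -0.41 in B and 0.29 in C. Prkcz lay near the dim limit, where p53SYM arrays read high. In A 0 were higher and 1 lower, in B 0 higher and 3 lower (beside 15.6% and 15.5% of all probe sets), and in C 3 higher and 0 lower (beside 10.2% and 15.1%).

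**Figure D3:**
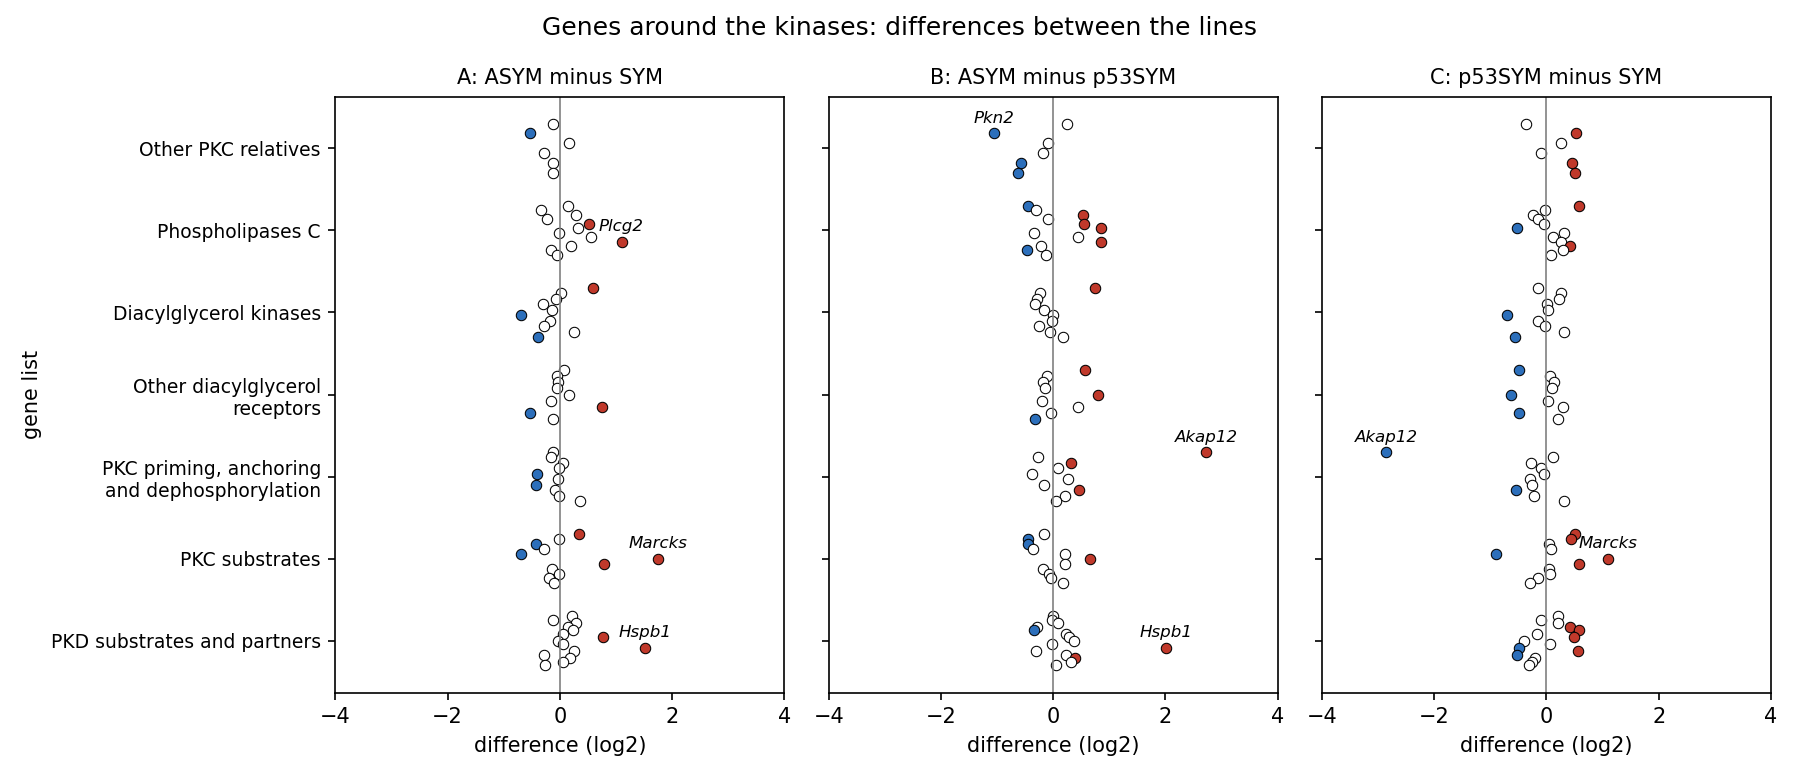
Differences between lines (log2, horizontal axis) of the 73 measured genes in 7 lists (vertical axis) in comparisons A, B and C; each point is a gene, red where called higher, blue where called lower and white where not called. Genes with a difference of at least 1 are named: Marcks, Hspb1 and Plcg2 in A, Hspb1, Akap12 and Pkn2 in B, and Marcks and Akap12 in C.

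By the rank product test Plcg2, Marcks and Hspb1 were called higher in A, Akap12 and Hspb1 higher and Pkn2 lower in B, and Akap12 lower in C. With limma, Akap12, Hspb1, Pkn2 and Dgka kept their calls in B under all 16 alternatives that refit each gene, and Akap12, Cttn, Gap43, Marcks and Unc13c kept theirs in C under all of those that could be run. A minimum difference of 1, which is not among the 16, would leave out Dgka in B and Cttn, Gap43 and Unc13c in C. In A, again over the 16, Add1, Add3, Dgkz and Mlst8 lost their calls under at least 3 alternatives, and the other genes named there kept theirs. All other calls named for B and C were lost under at least 1, and of all the lost calls only that of Gnb2l1 went with a change of sign.

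To place the pattern of Prkd1 among other genes, its profile was set against the 254 named profiles with a range of at least 2 log2 units over the 8 arrays. The highest Pearson correlations were with 2 profiles of Runx1t1, a transcriptional corepressor gene (r = 0.993 for each), and with Gng11, for a G protein gamma subunit (0.980), Ass1, for argininosuccinate synthase (0.978), and Ak1, for adenylate kinase (0.971). In its brighter profile Runx1t1 had means of 6.21 (ASYM), 3.79 (SYM) and 5.88 (p53SYM), and Ak1 averaged 10.70, 7.95 and 9.53. The most opposite profiles were those of Osr1, a zinc finger transcription factor gene (-0.983), Cldn1, a tight junction gene (-0.981), and Ssh3, a cofilin phosphatase gene (-0.980). For Osr1 the means were 6.88 (ASYM), 9.09 (SYM) and 7.23 (p53SYM). The 8 arrays fall into 3 lines, so these correlations mainly restate differences between the lines, and they are given with no p.

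**Figure D4:**
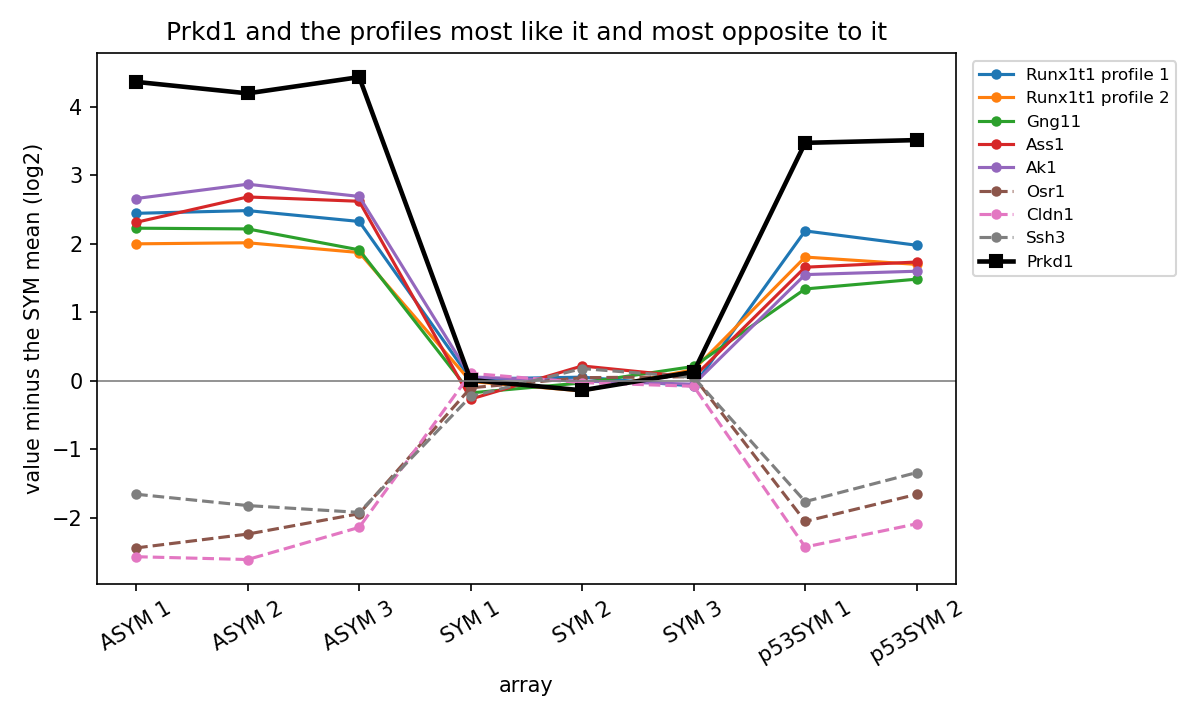
Values of Prkd1 (black) and of the profiles most like it (solid) and most opposite to it (dashed), each minus its SYM mean (log2, vertical axis), on the 8 arrays (horizontal axis). Prkd1 lies at 4.34 on average in ASYM and 3.50 in p53SYM, and the other solid lines rise in the same lines by less.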

How the data were processed

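The authors hybridized RNA of 8 cultures to Affymetrix mouse arrays and computed log2 values by RMA (named in the submitters' processing notes) with probe sets redefined by RefSeq transcript (chip file version 12). These deposited values were used with no further normalization. After 64 control probe sets were left out, 22523 remained, and a RefSeq table of GRCm38.p6 named 81.2% of them. Probe sets with identical values were counted once for a gene, and in the lists the brightest profile stood for a gene. Plcg1, Unc13a, Phlpp1 and Ppp1r14b were not matched and not analysed here.

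Group means were fitted on all 8 arrays with limma 3.58.1 (R 4.3.3), with Benjamini-Hochberg adjustment. The rank product test was re-implemented in Python 3.11.15 with 100 permutations. Both were tested on simulated data. Alternatives were blocks for the replicate number and the hybridization controls, the 2 compared groups only, a trend in the prior, a filter on dim probe sets, renormalized or centred arrays, identical profiles counted once, a minimum log2 difference of 1, a stricter rank product threshold, and each array left out. The members and lists were chosen with earlier results of these data known. Named genes are all 9 family members, from each list and comparison up to 3 called genes in each direction by size (Add2 in C was added after its values were seen), label checks, and the 5 profiles most like Prkd1 and the 3 most opposite.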

Additional observations from a re-analysis of the deposited data

Results flagged for a closer look

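The control probe sets for 18S ribosomal RNA, which enter none of the comparisons, averaged 10.63 on SYM replicate 3 against 5.58 to 6.46 on the other 7 arrays. The same array was 1 of the 3 with high hybridization controls (9.62). Without it, the A difference was 4.40 for Prkd1, 0.53 for Prkd2 and -0.48 for Prkca. The part of this signal in the results was not tested beyond these values.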

How the results depend on the processing

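Among the family, Prkd2 in A and Prkca in A and C kept their calls under all 16 alternatives that refit each gene. Of the 426 single values of the 9 genes, 390 kept direction and call, 9 lost a call, 2 gained one, 22 changed sign, and 3, all of Prkd1, moved by at least the spread between replicates. Of the 957 values of named pathway genes, 828 kept direction and call, 128 lost a call and 1 changed sign. With a block for the hybridization controls the family calls were 0 in B in place of 2, and the calls among the 73 pathway genes were 4 in B in place of 22 and 11 in C in place of 24. A second quantile normalization left 1 family call in B. With a minimum difference of 1 the family calls were 0 in A, B and C, and the pathway calls 3, 3 and 2. Limma in place of the rank product gave 2, 2 and 1 family calls in place of 0. With 1 array left out, the family calls were 2 to 3 in A, 0 to 2 in B and 1 in C, and the pathway calls 14 to 18, 10 to 22 and 11 to 25; without p53SYM replicate 2 they were 10 in B and 11 in C, and without p53SYM replicate 1 12 in C. A group left with 1 array was assumed to vary like the others. The share of all probe sets called was not taken under these alternatives, so the counts have no background beside them.

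With the replicate number as a block (replicate block) the family calls were 3, 2 and 1, with Prkcq gained in A (adjusted p = 0.0423), and the pathway calls 19, 29 and 24. Same-numbered ASYM and SYM arrays correlated at 0.27, 0.03 and 0.38 in their deviations, and replicate 2 was not closest to its own number in both lines, so the numbers were not taken to pair the arrays.

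The differences that changed sign were uncalled, except that of Gnb2l1. With the hybridization controls as a block they were 0.027 for Prkd3 in A, 0.0050 for Prkd3 in B, -0.16 and 0.22 for Prkce in B and C, and -0.0023 for Prkch in A. After a second quantile normalization they were -0.15 for Prkca in B, 0.10 and -0.0033 for Prkcb in B and C, 0.10 for Prkch in B, and -0.033 for Gnb2l1 in B. For Prkca in B the replicate block gave -0.035 and centring -0.0009. With 1 array left out, differences ran from -0.057 to 0.054 for Prkd3 in A, -0.065 to 0.091 for Prkca in B, -0.016 to 0.041, -0.22 to 0.089 and -0.067 to 0.24 for Prkcb in A, B and C, -0.25 to 0.0016 for Prkce in C, -0.0023 to 0.11 for Prkch in A, and -0.24 to 0.088 for Prkcq in C. The cause was not tested. Prkcb and Prkch, dim in all groups, gave no values under the filter on dim probe sets. How far genes near the dim limit lay above background was not measured.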

Other observations

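Among the cell type markers, 3 of the 5 smooth muscle genes were called lower in p53SYM than in both other lines, that is higher in B and lower in C, where 15.6% and 15.1% of all probe sets were so called. Tagln and Cnn1 averaged 12.70 and 11.58 in ASYM, 12.45 and 11.24 in SYM, and 9.70 and 7.87 in p53SYM. Their B differences were 3.01 (limma adjusted p = 5.76e-06) and 3.70 (adjusted p = 4.37e-06), and that of Acta2, the brightest of the 5, was 0.86 (adjusted p = 0.000304). The other 2 did not fall: Des averaged 5.93, 6.04 and 6.22 with no call, and Myh11, dim in all groups, was lower in ASYM than in p53SYM by 0.35 (adjusted p = 0.0499). The summed linear array values of the 5 were 26820, 24670 and 29700 in ASYM, 27700, 22680 and 26680 in SYM, and 10470 and 10750 in p53SYM. The 10 fibroblast markers were mixed, with 5 called higher and 1 lower in B (15.6% and 15.5% of all probe sets), and 3 higher and 3 lower in C (10.2% and 15.1%). Col3a1, Col1a1 and Pdgfra were lower in p53SYM than in both other lines, with B differences of 2.42, 1.49 and 1.51, whereas Thy1 was higher there (B -0.67, C 0.37) and Col1a2 was level (B 0.25, C -0.01). With a block for the hybridization controls, chosen for the markers after seeing the data, Tagln, Cnn1 and Acta2 kept their calls in B and C, and that of Myh11 was lost. The fibroblast calls fell to 2 higher (Col1a1 and Pdgfra) and 0 lower in B. In C they fell to 0 higher and 3 lower (Col1a1, Col3a1 and Pdgfra), so that Thy1 was called in neither. The shares of all probe sets given above belong to the fit without the block, and none was taken under it. Under that block the B differences of Col3a1 and Thy1 were 2.69 and -0.48 (adjusted p = 0.0562 and 0.155). The genes named here were singled out after their values were seen. Akap12, Prkcdbp and Rasgrp3 were low in p53SYM as well, and the part of a cell type in those values was not tested.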
